A study of Homo sapiens with 2 samples.

Results

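The genes described here are 9 factors and markers that define bile duct epithelial cells (cholangiocytes) or direct their lineage, in TFK1 cells, an established human cholangiocarcinoma (CCA) cell line. They are the transcription factors HNF4A, ONECUT1, FOXA2, SOX9, GATA6 and HES1, the surface protein EPCAM, the chloride channel CFTR and the water channel AQP1. They were taken by symbol from the deposited tables, with 1 row per symbol, and are 9 of the 56638 genes there. All 9 had at least 10 reads summed over both libraries, as did 17545 genes in all. RNA was sequenced from a library labelled T-shNC, TFK1 cells with the negative control genotype, and a library labelled T-shMBD2, TFK1 cells with MBD2 knocked down, both labelled as given no treatment. The study made such cells with lentiviral shRNA from the pLKO.1 vector, under drug selection. It used more than 1 shRNA against MBD2, and the labels do not say which was sequenced. Each condition has 1 library, so the differences given here have neither a replicate check nor a p-value.

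Cholangiocytes and hepatocytes arise from a common progenitor of the embryonic liver. HNF4A and the FOXA factors direct hepatic gene programs, ONECUT1 acts in the progenitor and in duct formation, and SOX9 marks the cells that form ducts. Notch signaling, read out by HES1, favors the duct fate, and the mature duct cell modifies bile through channels that include CFTR and AQP1. MBD2 is a protein that binds methylated CpG dinucleotides.

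Read counts summed to 14467406 in T-shNC and 14728814 in T-shMBD2. Fold changes (log2FC, T-shMBD2 over T-shNC) were computed from counts scaled with the TMM method, and each is followed by a 95% exact interval that covers counting error only. Levels of different genes are compared only in TPM, a share of all transcripts that is corrected for gene length. MBD2 had 1013 reads in T-shNC and 365 in T-shMBD2, or 44.6 and 15.6 TPM. This gave a log2FC of -1.48 (interval -1.66 to -1.31), in the direction of the labels.

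The 4 factors HNF4A, ONECUT1, SOX9 and FOXA2, together with EPCAM, were lower in T-shMBD2 beyond counting error. HNF4A was reduced to 48.7% of its T-shNC level, ONECUT1 to 43.3%, SOX9 to 60.4%, FOXA2 to 67.0% and EPCAM to 68.2%. HES1 and GATA6 differed by less than counting error, and CFTR and AQP1 had too few reads to show a change of this size. The interval of HES1, -0.581 to 0.104, holds the log2FC of FOXA2 (-0.577) and EPCAM (-0.552), so a reduction of that size was not excluded. Of the 9 genes, 2 lay below a log2FC of -1, against 5.07% of all tested genes, and none lay above 1, against 5.48%. Below -0.5 there were 6 of the 9, against 13.2% of all tested genes, and 1 of the 6, CFTR, had only 17 reads in all and an interval that holds 0. The whole interval lay below 0 for 5 of the 9, against 18.4%, and above 0 for none, against 19.7%. The median log2FC of the 9 genes was -0.58, and that of all tested genes was -0.0082. Because counting intervals shorten with depth, the same was counted for genes with at least 100 reads, where 4 of 6 of these genes had an interval below 0, against 22.7% of all such genes. The summed level of all 9 genes was 129 TPM in T-shNC and 82.9 TPM in T-shMBD2. In bulk RNA, fewer cells that express a gene and less RNA per cell cannot be told apart.

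**Figure D1:**
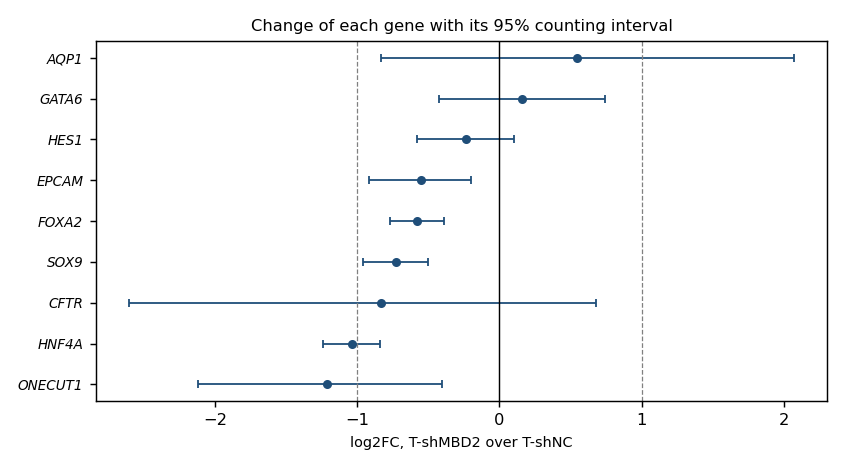
The log2FC of each of the 9 genes (x axis, T-shMBD2 over T-shNC) is plotted as a point with its 95% counting interval; dashed lines mark -1 and 1. The intervals of HNF4A, ONECUT1, SOX9, FOXA2 and EPCAM end below 0, while those of HES1, GATA6, CFTR and AQP1 cross it.

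HNF4A is a nuclear receptor that drives hepatic and intestinal gene expression. It lies on the plus strand at chr20:44355700-44434596 in GENCODE 29 (GRCh38). It had 631 reads in T-shNC and 309 in T-shMBD2, or 24.1 and 11.5 TPM. The log2FC was therefore -1.04 (interval -1.24 to -0.84), and 4.91% of all tested genes had a log2FC as low or lower. Among genes with at least 100 reads, that share was 0.910%. HNF4A is known to be transcribed from 2 starts, an upstream one and a downstream one used in mature liver, and the deposited counts do not separate them. HNF4A-AS1, which overlaps it on the opposite strand, had 4 and 2 reads, and AL117382.2, also antisense, had 3 and 1. Of its neighbours, TTPAL, 41289 bases away, was at a log2FC of 0.26 (interval 0.09 to 0.42).

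HNF4A and ONECUT1 were the genes past -1, and their promoter windows are shown because the protein that was knocked down binds CpG dinucleotides when they are methylated; methylation and MBD2 binding were not analyzed here. The windows run from 250 bases before to 50 bases after a RefSeq start (GRCh38.p14), each printed 5′ to 3′ on the strand of the gene, with every CG in capitals. They lie at chr20:44355449-44355748 (plus strand) for the upstream HNF4A start, chr20:44400989-44401288 (plus strand) for the downstream HNF4A start, and chr15:52790287-52790586 (minus strand) for ONECUT1.
HNF4A upstream start: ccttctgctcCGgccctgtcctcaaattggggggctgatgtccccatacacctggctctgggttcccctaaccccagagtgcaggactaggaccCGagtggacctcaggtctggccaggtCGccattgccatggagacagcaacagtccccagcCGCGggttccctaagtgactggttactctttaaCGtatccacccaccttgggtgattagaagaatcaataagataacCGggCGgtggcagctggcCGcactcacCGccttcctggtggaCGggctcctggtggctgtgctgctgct
HNF4A downstream start: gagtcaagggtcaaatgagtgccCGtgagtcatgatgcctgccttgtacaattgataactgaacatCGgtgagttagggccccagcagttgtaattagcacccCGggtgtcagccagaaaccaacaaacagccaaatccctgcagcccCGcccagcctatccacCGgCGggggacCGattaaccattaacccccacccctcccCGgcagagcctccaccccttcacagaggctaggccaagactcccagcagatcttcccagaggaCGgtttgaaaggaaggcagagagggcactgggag
ONECUT1: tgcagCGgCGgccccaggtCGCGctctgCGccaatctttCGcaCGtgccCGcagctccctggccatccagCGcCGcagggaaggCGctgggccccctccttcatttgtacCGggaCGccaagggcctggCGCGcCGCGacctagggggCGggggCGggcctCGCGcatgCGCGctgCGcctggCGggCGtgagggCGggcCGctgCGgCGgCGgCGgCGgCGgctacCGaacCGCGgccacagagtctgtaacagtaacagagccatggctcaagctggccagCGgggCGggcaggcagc

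The ONECUT1 window held 39 CG, more than 91.3% of the 35116 RefSeq windows of the same length, whose median was 14. The HNF4A windows held 11 at the upstream start and 9 at the downstream start, below that median. The windows of GATA6, HES1, CFTR and AQP1 held 25, 21, 12 and 10 CG. Windows were found for 6 of the 9 genes. Motifs were searched as letters on both strands, and not every motif searched is reported here. The GATA motif, with the letters AGATAA, and the ONECUT motif, with the letters ATTGAT, each occurred 1 time in the upstream HNF4A window, against 10.3% and 6.26% of all windows, and ATTGAT also occurred 1 time in the downstream window. The HNF4 letters CAAAGTC, the FOXA letters TGTTTAC and the SOX letters ACAATG were in no window of these genes, against 3.37%, 3.42% and 10.8% of all windows. The HES N-box, CACNAG, occurred 4 times in the HES1 window, 2 times in the upstream HNF4A window and 1 time in the GATA6 window, against 38.0% of all windows, and the TATA box, TATAAA, 1 time in the AQP1 window, against 11.5%. Such a match describes letters only and is not evidence of binding.

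ONECUT1 (also HNF6) is a homeobox factor of the liver progenitor and of early bile duct formation, on the minus strand at chr15:52756989-52791078. It had 42 reads in T-shNC and 18 in T-shMBD2, or 4.60 and 1.92 TPM. This corresponds to a log2FC of -1.21 (interval -2.12 to -0.40), so that counting error alone leaves its level anywhere from 23.1% to 75.6% of that in T-shNC. Its relative ONECUT2 had more reads and barely differed, with 235 and 256 (log2FC 0.11, interval -0.15 to 0.38). In TPM, ONECUT1 stood at 1.76 times ONECUT2 in T-shNC and at 0.691 times in T-shMBD2. The ratio of their reads changed by -1.34 on the log2 scale (95% exact conditional interval -2.27 to -0.47), a comparison that does not depend on how the libraries are scaled. ONECUT3 had 2 and 3 reads.

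FOXA2 is a pioneer factor that opens chromatin at liver and gut genes. It had the highest level of the 9 genes in both libraries and lies on the minus strand at chr20:22581005-22585455. It had 577 reads in T-shNC and 389 in T-shMBD2, or 42.7 and 28.1 TPM, with a log2FC of -0.58 (interval -0.77 to -0.39). FOXA1, which shares much of its function, differed in the same direction, with 441 and 338 reads and a log2FC of -0.39 (interval -0.60 to -0.18). FOXA3 was higher instead, with 38 and 76 reads and a log2FC of 0.98 (interval 0.41 to 1.59). The ratio of FOXA2 to FOXA3 went from 12.5 to 4.20 in TPM, a change of -1.57 on the log2 scale (interval -2.20 to -0.95). That of FOXA2 to FOXA1 changed by -0.18, with an interval from -0.47 to 0.098 that holds 0. LINC00261, a long noncoding RNA whose gene lies 2362 bases from FOXA2 on the same strand, was lower as well, with 144 and 74 reads and a log2FC of -0.96 (interval -1.39 to -0.56).

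SOX9 is the SOX factor of duct-forming cells, on the plus strand at chr17:72121020-72126420. It had 435 reads in T-shNC and 264 in T-shMBD2, or 19.8 and 11.7 TPM. The log2FC came to -0.73 (interval -0.96 to -0.51), and 2.57% of genes with at least 100 reads had a log2FC as low or lower. SOX4, which acts beside SOX9 in bile duct formation, was higher, with 1284 and 1549 reads and a log2FC of 0.26 (interval 0.15 to 0.37). The ratio of SOX9 to SOX4 thus changed by -0.99 (interval -1.24 to -0.74). SOX17, another factor of the biliary lineage, had 26 and 25 reads, and SOX9-AS1, on the strand opposite to SOX9, had 1 and 4.

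GATA6 is a zinc finger factor of the endoderm, on the plus strand at chr18:22169443-22202528. It had 49 reads in T-shNC and 55 in T-shMBD2, or 2.33 and 2.55 TPM. Its log2FC was 0.16 with an interval running from -0.42 to 0.74, so a difference of either sign was not detectable at this depth. GATA4 had 53 and 69 reads, and its log2FC of 0.37 also had an interval that holds 0 (-0.17 to 0.92). HNF4A and GATA6 differed from each other in their change, by -1.20 on the log2 scale (interval -1.82 to -0.58).

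The reductions differed in size. The ratio of HNF4A to FOXA2 changed by -0.46 (interval -0.74 to -0.18) and that of HNF4A to SOX9 by -0.31 (interval -0.61 to -0.0063), so HNF4A was reduced more than FOXA2, while for SOX9 the interval ends close to 0. SOX9 and FOXA2 could not be separated, with a change of their ratio of -0.15 (interval -0.45 to 0.14). In all, 16 such ratios were compared, with no adjustment of the intervals for their number. The pairs were named after the values of their genes were seen.

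**Figure D2:**
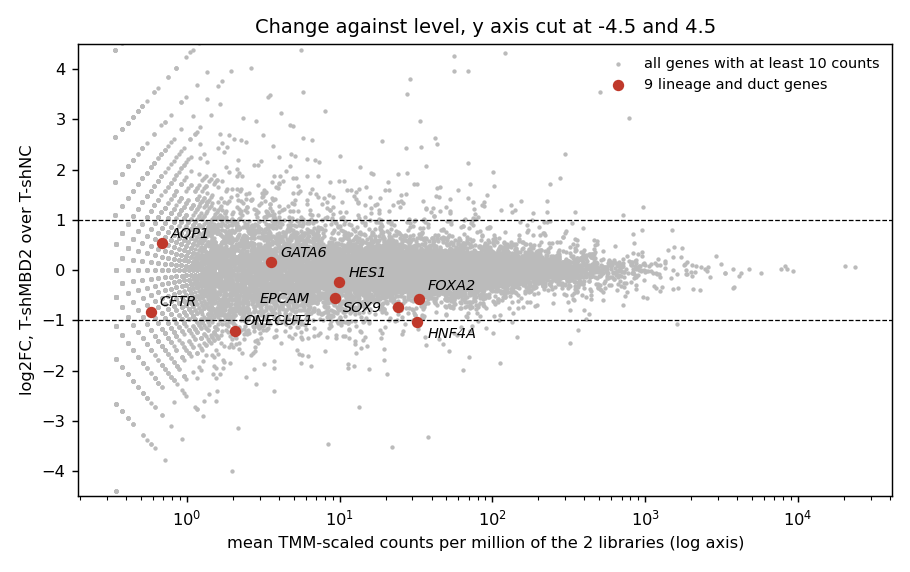
The log2FC (y axis) is plotted against the mean TMM-scaled CPM (x axis, log scale) for the 17545 genes with at least 10 reads in grey and the 9 genes in red; dashed lines mark -1 and 1, and genes beyond -4.5 or 4.5 are not drawn. HNF4A lies at -1.04, where 0.910% of the genes with at least 100 reads were as low or lower, while AQP1 and CFTR lie where the grey points spread widely.

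Other lineage factors were read from a list of 35 genes, of which 26 had at least 10 reads. Of these, 13 were higher and 13 lower, with a median log2FC of -0.019 against -0.0082 over all tested genes, and of 0.095 over the 32 with at least 1 read. The whole interval lay below 0 for 10 of the 26, against 18.4% of all tested genes, and above 0 for 6, against 19.7%. Among those lower, HNF4G, the relative of HNF4A, had 123 and 90 reads and a log2FC of -0.46 (interval -0.87 to -0.06). HNF4A was reduced more, since its ratio to HNF4G changed by -0.58 (interval -1.03 to -0.12). ELF3, an epithelial ETS factor, had 2582 and 1696 reads and a log2FC of -0.62 (interval -0.70 to -0.53). KLF5, a factor of gut epithelium, was at -0.35 (interval -0.44 to -0.25), and TEAD1, which had the highest level of the list at 128 TPM in T-shNC, was at -0.21 (interval -0.26 to -0.16).

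The 6 factors with an interval above 0 included SOX4 and FOXA3, given above. EHF, an epithelial ETS factor like ELF3, had 214 and 517 reads and a log2FC of 1.26 (interval 1.03 to 1.50), and was the sole gene of this list past 1. CEBPB and CEBPD, which act in inflammatory and acute-phase responses, were at 0.56 (interval 0.45 to 0.66) and 0.40 (interval 0.23 to 0.58). CEBPA, the member of that family that marks hepatocytes, had 2 and 3 reads. GRHL2, PTF1A and CDX1 had no reads in either library, where 0 reads allow up to 3 reads, or 0.207 CPM in T-shNC and 0.204 CPM in T-shMBD2 (CPM, counts scaled to the library total).

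HES1 is the repressor through which Notch receptors act in duct cells, on the plus strand at chr3:194136145-194138732. It had 157 reads in T-shNC and 134 in T-shMBD2, or 17.9 and 14.9 TPM. The log2FC was only -0.24 (interval -0.58 to 0.10), so counting error alone allows a level between 66.9% and 108% of that in T-shNC. Its promoter window is printed because it holds the letters TGGGAA, the core of the site of RBPJ, the DNA-binding partner of Notch. They were searched on both strands and are in capitals, 84 and 70 bases before the RefSeq start, in a window at chr3:194135898-194136197 (plus strand, GRCh38.p14).
HES1: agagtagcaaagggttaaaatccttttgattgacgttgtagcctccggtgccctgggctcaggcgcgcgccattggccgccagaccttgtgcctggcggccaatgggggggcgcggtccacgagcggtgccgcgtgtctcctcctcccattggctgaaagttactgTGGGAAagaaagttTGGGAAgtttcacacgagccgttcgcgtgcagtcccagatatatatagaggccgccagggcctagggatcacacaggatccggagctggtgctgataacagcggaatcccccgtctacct

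The same letters were in 24.0% of all windows, and 1 match lay in the downstream HNF4A window. In the ratio to HES1, HNF4A changed by -0.80 (interval -1.20 to -0.40), so the 2 genes did not change alike. Of the relatives of HES1, HES4 (117 and 89 reads, log2FC -0.40, interval -0.82 to 0.01) and HES6 (70 and 66 reads, -0.09, interval -0.60 to 0.41) also had intervals that hold 0. HES7 had 45 and 23 reads and was lower (log2FC -0.96, interval -1.77 to -0.22), but the change of the ratio of HES1 to HES7, 0.74, had an interval that holds 0 (-0.10 to 1.61). HES2 had 39 and 25 reads, and HES5 had none in either library.

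The Notch pathway beyond HES1 was read from a list of 36 genes, of which 32 had at least 10 reads. Of these, 20 were lower and 12 higher, with a median log2FC of -0.077, and the whole interval lay below 0 for 8, against 18.4% of all tested genes, and above 0 for 6, against 19.7%. Among the receptors, NOTCH3 was lower (1734 and 1302 reads, log2FC -0.42, interval -0.53 to -0.32). NOTCH1, with 663 reads in each library (log2FC -0.01, interval -0.17 to 0.15), and NOTCH2, with 1888 and 1883 (-0.01, interval -0.11 to 0.08), were nearly the same, and NOTCH4 had 3 and 4. Among the ligands, JAG1, whose loss causes too few bile ducts in Alagille syndrome, had 1144 and 1135 reads (log2FC -0.02, interval -0.14 to 0.10). JAG2 was lower, with 642 and 493 reads (log2FC -0.39, interval -0.56 to -0.22). ADAM10, the protease that cuts Notch at the cell surface, had 5860 and 3981 reads (log2FC -0.57, interval -0.63 to -0.51), while ADAM17, which can cut it too, was at 0.08 (interval -0.02 to 0.19). RBPJ was at -0.17 (interval -0.31 to -0.04). The higher genes included the coactivator MAML2 (128 and 201 reads, log2FC 0.64, interval 0.32 to 0.97), the glycosyltransferase RFNG (0.38, interval 0.08 to 0.69), PSEN2 of the gamma-secretase (0.32, interval 0.12 to 0.53) and DTX3L (0.21, interval 0.04 to 0.38). NCSTN, also of the gamma-secretase, and NUMB, an inhibitor of Notch, were at 0.06 (interval -0.06 to 0.17) and -0.17 (interval -0.27 to -0.06).

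**Figure D3:**
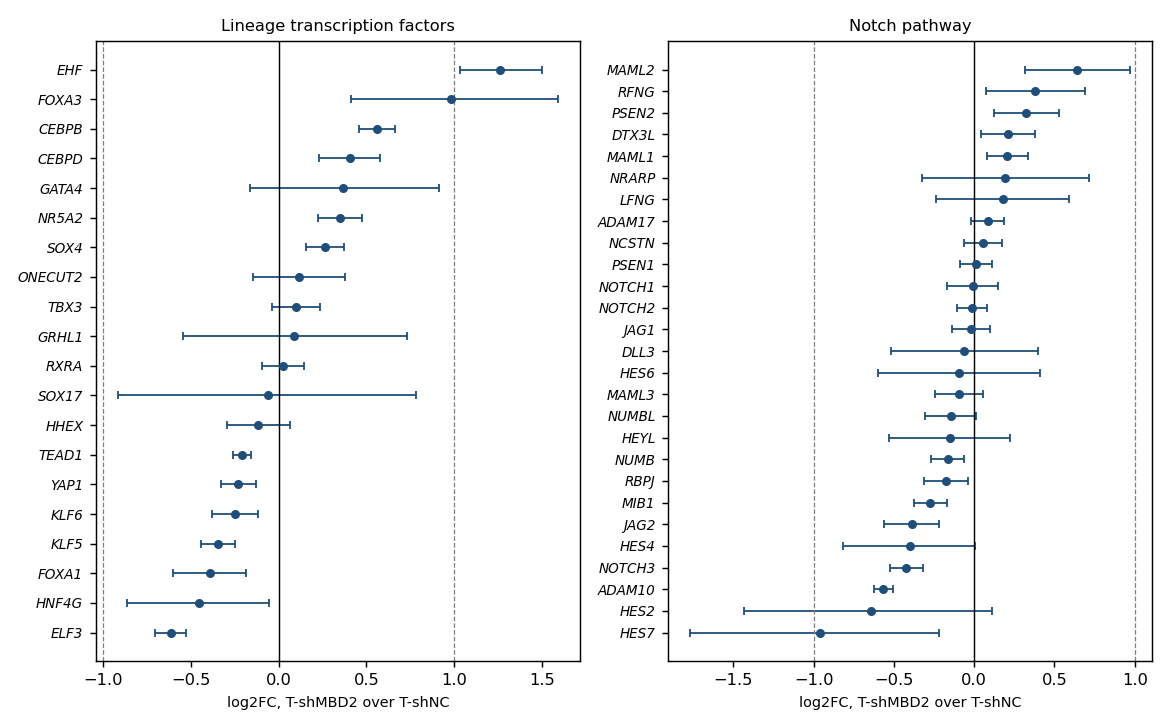
The log2FC (x axis, T-shMBD2 over T-shNC) with its 95% counting interval is plotted for the reported genes with at least 50 reads of the lineage factor list (left) and the Notch list (right). EHF, at 1.26, is the highest factor; HNF4G and ELF3 lie below 0, and NOTCH1, NOTCH2 and JAG1 lie at 0.

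EPCAM is an adhesion protein on the surface of duct cells and other epithelia, on the plus strand at chr2:47345158-47387601. It had 162 reads in T-shNC and 111 in T-shMBD2, or 16.9 and 11.3 TPM, with a log2FC of -0.55 (interval -0.92 to -0.20).

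CFTR is the chloride channel that starts fluid secretion by duct cells, on the plus strand at chr7:117465784-117715971. It had 11 reads in T-shNC and 6 in T-shMBD2, or 0.322 and 0.171 TPM. The interval of its log2FC, -0.83, ran from -2.60 to 0.68, so no difference was detectable. CTTNBP2, which overlaps its end on the opposite strand, had 223 and 175 reads, and whether reads were counted by strand is not given in the sources used here. AQP1, the water channel of the duct cell membrane, lies on the plus strand at chr7:30911694-30925516. It had 8 and 12 reads, or 0.522 and 0.763 TPM, and for its log2FC of 0.55 the interval ran from -0.84 to 2.07. The deposited tables give the same value to the readthrough transcript that joins its neighbour FAM188B to AQP1, so the reads cannot be assigned to AQP1 alone. FAM188B itself had 3 and 2 reads.

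**Figure D4:**
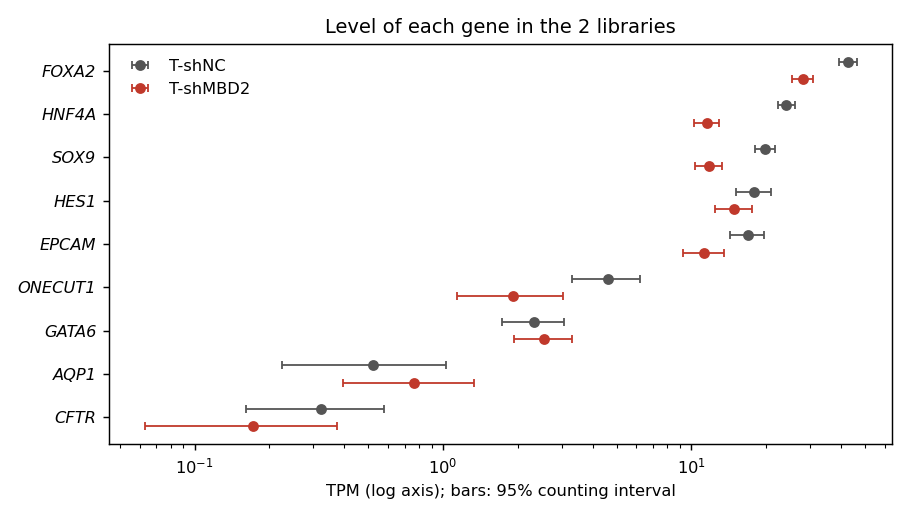
The level of each of the 9 genes is plotted in TPM (x axis, log scale) in T-shNC (grey) and T-shMBD2 (red), with 95% counting intervals. FOXA2 is highest at 42.7 and 28.1 TPM, and AQP1 and CFTR lie below 1 TPM in both libraries.

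By level in T-shNC the order was FOXA2, HNF4A, SOX9, HES1, EPCAM, ONECUT1, GATA6, AQP1 and CFTR, over a range of 133 times. The counting intervals of SOX9, HES1 and EPCAM overlapped each other, as did those of AQP1 and CFTR, so these genes were not separated, while the intervals of the other neighbours in this order did not overlap. In T-shMBD2, HES1 came second at 14.9 TPM, and SOX9, HNF4A and EPCAM followed at 11.7, 11.5 and 11.3 TPM, with counting intervals that overlapped each other and that of HES1. Of the 9 genes, 5 lay above the median of tested genes in T-shNC (12.2 TPM), and 2, FOXA2 and HES1, did in T-shMBD2 (12.0 TPM). With 2 libraries, likeness of pattern is only nearness in both levels, measured as the distance over log2(TPM + 0.1). By it JAG2 was nearest to HES1 (distance 0.14), NOTCH3 to FOXA2 (0.15), ONECUT2 to GATA6 (0.20) and HES7 to ONECUT1 (0.32), among the genes of the other lists.

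The labelled cell type was checked against a list of 24 biliary epithelial markers, of which 20 had at least 10 reads. The cytokeratins of simple and duct epithelium were abundant, with KRT8 at 3890 and 3006 TPM, KRT7 at 1327 and 1160 TPM and KRT18 at 686 and 526 TPM. KRT19, a defining duct marker, was far lower at 9.04 and 15.0 TPM. SPP1 and ANXA4 were present at 276 and 323 TPM in T-shNC, while CD24 had no reads in either library and PROM1 had 1 and 0. Of the 20 genes, 6 had an interval below 0, against 18.4% of all tested genes, and 7 above 0, against 19.7%, with a median log2FC of 0.20, or -0.010 over the 15 of them with at least 100 reads. KRT19 had 70 and 119 reads (log2FC 0.75, interval 0.32 to 1.20), CLDN4, a tight junction protein, 52 and 103 (0.97, interval 0.48 to 1.49), and MUC1, a membrane mucin, 58 and 93 (0.67, interval 0.18 to 1.17). Higher markers with more reads included CDH1, with 1762 and 2342 (0.40, interval 0.31 to 0.49). DCDC2 had 1993 and 2333 (0.22, interval 0.13 to 0.31) and ANXA4 7943 and 9098 (0.19, interval 0.14 to 0.23). TM4SF4, a membrane protein of liver and gut epithelium, had 1300 and 721 reads (-0.86, interval -0.99 to -0.73), and KRT8 was at -0.34 (interval -0.36 to -0.33), KRT18 at -0.36 (interval -0.40 to -0.31) and KRT7 at -0.17 (interval -0.20 to -0.13).

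The transport genes that work with CFTR and AQP1 were read from a list of 31 genes, of which 24 had at least 10 reads. Their median log2FC was 0.065, or -0.010 over the 16 of them with at least 100 reads, with 5 intervals below 0, against 18.4% of all tested genes, and 5 above 0, against 19.7%. SLC12A2, which loads chloride into duct cells, was lower (5996 and 3458 reads, 156 and 87.8 TPM, log2FC -0.80, interval -0.86 to -0.74). The bicarbonate importer SLC4A4 had 338 and 214 reads (-0.67, interval -0.92 to -0.42), and EZR, which anchors membrane proteins to actin, was at -0.44 (interval -0.49 to -0.38). SLC4A2, the anion exchanger that releases bicarbonate into bile, was at 0.08 (interval 0.01 to 0.16). GGT1, an enzyme of the duct cell surface, was at 0.47 (interval 0.34 to 0.59), and the ATP receptor P2RY2 had 63 and 104 reads (0.71, interval 0.25 to 1.19). SCTR, the secretin receptor, had 9 and 15 reads, and the calcium-activated chloride channel ANO1 had 4 and 6. Of the other water channels, AQP3 was at 47.3 and 47.9 TPM (log2FC 0.05, interval -0.10 to 0.19), far above AQP1, and AQP4 had 12 reads in T-shNC and 1 in T-shMBD2.

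Markers of the hepatocyte, the other fate of the liver progenitor, were mostly near 0. Of 24, 10 had at least 10 reads and 7 had none in either library, among them TTR, APOB and AFP, while ALB had 0 and 3 reads. The exceptions with many reads were the fibrinogen chains FGA, FGB and FGG, the plasma protein APOH and CPS1, the first enzyme of the urea cycle. FGB had 1569 and 473 reads (143 and 41.9 TPM, log2FC -1.74, interval -1.89 to -1.59), FGG 791 and 281 (-1.50, interval -1.70 to -1.30), FGA 1454 and 628 (-1.22, interval -1.36 to -1.08) and APOH 388 and 163 (-1.26, interval -1.53 to -0.99). These 4 genes and AHSG, with 15 and 6 reads, were the 5 genes of the list below -1, against 5.07% of all tested genes. CPS1 had 4835 and 4888 reads (0.01, interval -0.05 to 0.06), and SERPINA1 had 11 and 39 (1.77, interval 0.82 to 2.93). Lower fibrinogen and APOH thus stood beside the lower HNF4A, and whether these are related was not tested.

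**Figure D5:**
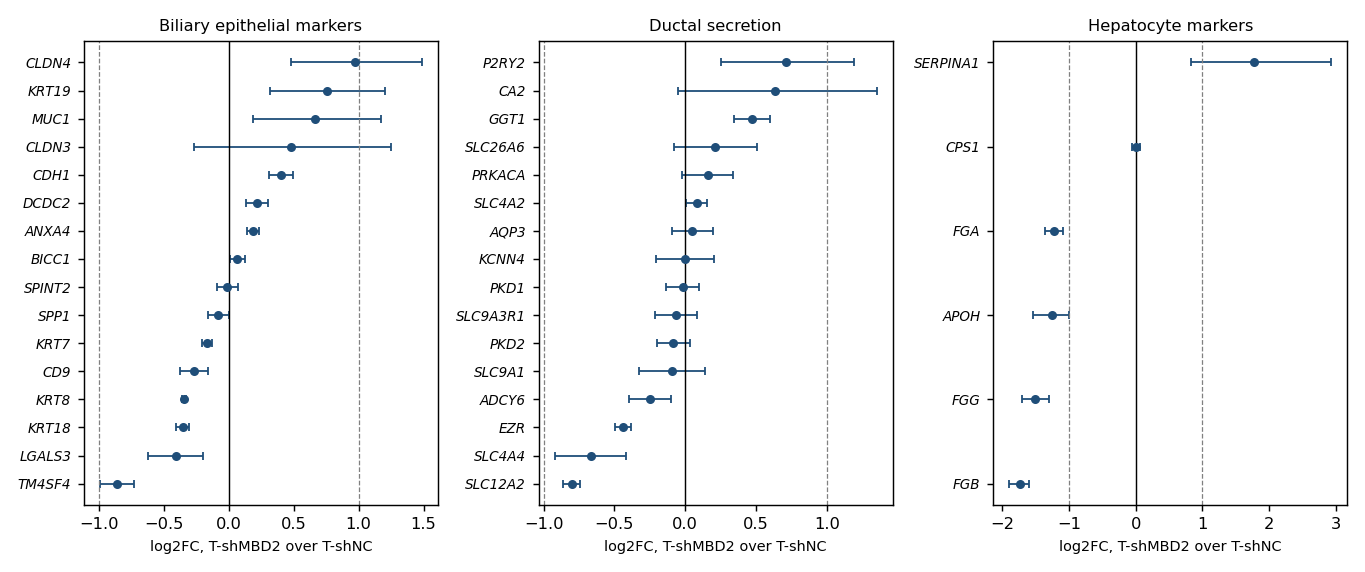
The log2FC (x axis, T-shMBD2 over T-shNC) with its 95% counting interval is plotted for the reported genes with at least 50 reads of the biliary epithelial (left), ductal secretion (middle) and hepatocyte (right) lists. FGB, FGG, APOH and FGA lie below -1 and CPS1 at 0, while KRT19, MUC1 and CLDN4 lie above 0.

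Markers of leukocytes and stroma were at or near 0 with a few exceptions. Of 18, 5 had at least 10 reads, and the summed level of all 18 was 11.1 TPM in T-shNC and 18.8 TPM in T-shMBD2. The defining markers PTPRC, COL1A2 and DCN had at most 1 read in each library and COL3A1 had 6 and 1. COL1A1 (124 and 308 reads), CORO1A (19 and 56) and LAPTM5 (3 and 29) were higher in T-shMBD2, and ACTA2 had 51 and 47. The part of these genes in the differences of the 9 genes was not tested.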

How the data were processed

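The authors deposited whole-number read counts per gene, not normalized, and a second table of TPM per gene, for 1 library per condition. The submitters' processing notes name fastp, HISAT2 2.1.0, featureCounts, DESeq 1.18.1 and the build GRCh38.p13; the annotation and the strandedness of counting are not given in the sources used here. The gene positions in the tables match GENCODE 29 (GRCh38) for 322 of 52567 genes, so positions were taken from GENCODE 29 by Ensembl identifier and those in the tables were not used. The extent of a gene can differ too, as for AQP1, which runs from 30893010 to 30965131 in the tables. Reads were therefore not necessarily counted over the spans printed here. Of 63723 lines, 46 without a gene were dropped, and rows that repeated a symbol with the same values were merged, leaving 56638 genes.

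Counts were scaled by TMM (edgeR 4.0.16, R 4.3.3). To each library 0.5 counts were added, in proportion to its size, before log2FC was taken. Genes with fewer than 10 counts over both libraries were not tested. The 95% intervals were Clopper-Pearson for log2FC (the share of a gene's reads that fell in T-shMBD2), exact Poisson for levels and exact conditional, from the odds ratio, for ratios of 2 genes (scipy 1.17.1). They cover counting error only, and reads without molecular identifiers are not independent molecules. With 1 library per condition no test was made. The methods were tested on simulated data that held counting error only, which the intervals assume, and no variation between cultures. The 9 genes and all gene lists were chosen with earlier results of these data known. Named from each list were the 4 genes highest and the 4 lowest in log2FC that had 50 counts or more and the 4 highest TPM in T-shNC, with the Notch receptors, overlapping and neighbouring genes, and defining markers, except a few genes that are not reported here. Family relatives of the 9 genes, the pairs for ratios and further list genes were named after their values were seen. Alternatives were DESeq2 1.42.0 size factors, total counts, upper-quartile factors, other prior counts, log2 of TPM plus 0.1 or 1, and other filters on low counts. Promoter windows are from RefSeq.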

Additional observations from a re-analysis of the deposited data

How the results depend on the processing

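The 9 genes and MBD2 kept their sign under each of the 7 alternatives of scaling, prior count and TPM, and each value stayed within its counting interval. HNF4A ranged from -1.06 to -1.01, SOX9 from -0.75 to -0.71, FOXA2 from -0.60 to -0.57, EPCAM from -0.58 to -0.54 and ONECUT1 from -1.23 to -0.94. CFTR ranged from -0.87 to -0.17 and AQP1 from 0.21 to 0.57, with CFTR closer to 0 than -0.5 with log2 of TPM plus 1. The number of the 9 genes past 1 or -1 fell from 2 to 1 with log2 of TPM plus 1, where ONECUT1 was at -0.94, and to 1 with at least 100 counts, where ONECUT1 was left out. The number of all genes past 1 or -1, 1851, became 714 with log2 of TPM plus 1, 8826 with at least 1 count and 340 with at least 100 counts. The median of the leukocyte and stromal markers, 1.30 over 5 genes, was -0.13 over the 13 genes with at least 1 count, and that of the hepatocyte markers, -0.69 over 10 genes, was 0.0069 over the 17 with at least 1 count and -1.26 over the 5 with at least 100, since most of these genes have few reads. The filter on low counts also turned the sign of small medians, as that of the lineage factors went from -0.019 over 26 genes to 0.095 over the 32 with at least 1 count, and with at least 100 counts that of ductal secretion went from 0.065 over 24 genes to -0.010 over 16 and that of the biliary markers from 0.20 over 20 to -0.010 over 15. The median of all genes moved by no more than from -0.033 to 0 between scalings. No paired analysis was possible because there is 1 library for each condition, and for the same reason no library could be left out. Levels from counts and gene length were not run, since the tables give no length column. Depth limits CFTR, AQP1, GATA6 and ONECUT1, and variation between cultures was not measured.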

Other observations

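Markers of pancreas and intestine, the other endodermal epithelia in which several of these factors act, were low in both libraries. Of 14, 5 had at least 10 reads, and 6, among them NEUROD1, TFF3 and OLFM4, had none in either library. MUC2, the gel-forming mucin of the intestine, had 8 reads in T-shNC and 46 in T-shMBD2 (log2FC 2.44, interval 1.42 to 3.81), or 0.166 and 0.931 TPM. NKX6-1, a factor of the pancreatic lineage, had 1 and 13 reads (log2FC interval 0.96 to 9.10). Of the 5 genes, these 2 had an interval above 0, against 19.7% of all tested genes, and none had an interval below 0, against 18.4%. LGR5 (7 and 13 reads), CHGA (17 and 22) and VIL1 (18 and 15) had intervals that hold 0. The intestinal factor CDX2 had 7 and 8 reads, and PDX1 had 1 and 2. These values compare 1 library with 1 library and no explanation for them was tested.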
